A study of Mus musculus with 8 samples.

Results

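Myelin made by Schwann cells has compact wraps and, between them, channels of cytoplasm: the inner tongue facing the axon, the paranodal loops, the Schmidt-Lanterman incisures and, under the outer surface, the Cajal bands. Adhesion proteins hold the inner tongue to the axon, gap junctions and tight junctions join successive wraps across the incisures and paranodes, and periaxin with dystroglycan pins the outer membrane in patches that border the Cajal bands. The 9 genes described here encode proteins of these compartments: Mag, Cadm4, Cnp, Prx, Drp2, Gjb1, Gjc3, Cldn19 and Mpdz. They were taken by symbol, and all 9 were found among the 23356 genes of the table and passed the filter of a mean of at least 1 FPKM (fragments per length of gene and per depth of the library), as did 12530 genes in all.

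The levels come from sciatic nerves of F1 mice of C57BL/6 and FVB/N at an age of 30 days. There were 4 genotypes with 2 libraries each: the double, which is HA-NRG1 type III/+:Q215X/+, then HA-NRG1 type III/+, Q215X/+ and wild type (WT). HA-NRG1 type III is an HA-tagged transgene of neuregulin 1 in its type III form, the axonal signal for myelination. It is known as a line driven by the neuronal Thy1 promoter, though the labels name no promoter. Q215X is a nonsense allele, present in 1 copy. The libraries of each genotype carry the endings 0 and 1, called set 0 and set 1, and no label states that they are separate animals. The sexes below show that the HA-NRG1 type III/+ libraries were not repeat libraries of 1 animal; for the other genotypes the spread behind the p-values may be technical. In whole nerve, fewer cells of a type and less RNA per cell cannot be told apart.

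Some facts of the libraries bear on the genes below. Nrg1, the gene the transgene copies, had 0.498 and 0.358 FPKM in the double, 0.393 and 0.312 FPKM in HA-NRG1 type III/+, 0.326 and 0.190 FPKM in Q215X/+, and 0.204 and 0.164 FPKM in WT, below the filter; whether transgene reads count under it is not known. The sets differed in many genes: with the set as a term, 35% of the 12530 genes passed an adjusted p under 0.05 for set 1 against set 0. By Xist and Ddx3y, the libraries of the double and of WT were female, those of Q215X/+ were male, and HA-NRG1 type III/+ was male in set 0 and female in set 1. Sex and genotype therefore cannot be told apart in Q215X/+ against WT or in the double against Q215X/+ alone. Skeletal muscle markers summed to 748 FPKM in the Q215X/+ library of set 1, against 2.46 to 60.1 FPKM in the other 7 libraries, and red blood cell markers to 599 and 1279 FPKM in Q215X/+, against 49.1 to 244 FPKM elsewhere.

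The transgene went with a lower level of Cnp on both backgrounds, at 53.7% to 56.1% of the matched library without it. Smaller differences in the same direction were seen in Mpdz and Gjc3, which passed the test only when the set was taken into account. The Q215X allele alone changed none of the 9 genes past the test. Over both backgrounds together, the mean of the double minus Q215X/+ and of HA-NRG1 type III/+ minus WT was below 0 in 8 of the 9 genes, as it was in 53.3% of all tested genes. The median log2 difference of (FPKM + 1) was −0.19 over the 9 genes and −0.01 over all tested genes. By limma with Benjamini-Hochberg adjustment over all tested genes, 1 of the 9 was called lower and 0 higher, where 0.99% of all tested genes were called in either direction and 0.455% lower. With the set as a replicate block, 3 of the 9 were called lower, where 7.1% were called in either direction and 3.69% lower. An unadjusted p under 0.05 was seen in 3 of the 9 without the block (Cnp, Mpdz and Gjc3), where 11.2% of all tested genes had one. The 4 transgenic libraries all lay below the 4 libraries without the transgene in 4 genes (Cnp, Mpdz, Gjc3 and Prx), a pattern that 5.2% of all tested genes showed. In 0 of the 9 did they all lie above, where 4.88% did.

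**Figure D1:**
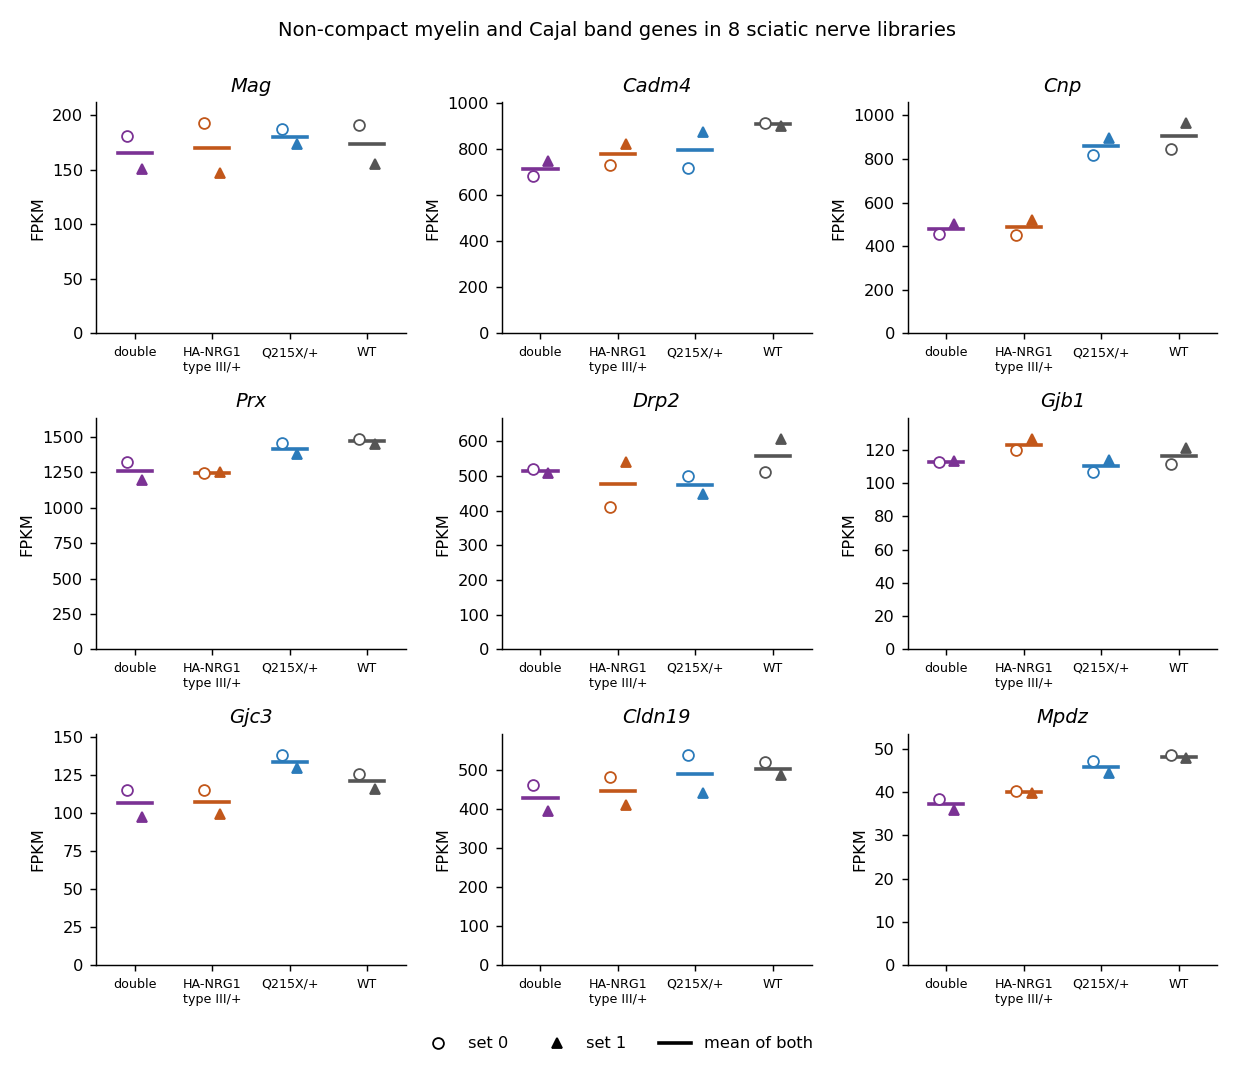
FPKM (vertical axes, from 0) of the 9 genes in every library; circles are set 0, triangles set 1 and bars the mean of the 2 libraries of a genotype. Cnp lies between 453 and 522 FPKM in the 4 libraries with the transgene and between 819.6 and 963 FPKM in the 4 without it. In Mag and Gjb1 the libraries with and without the transgene overlap.

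Cnp encodes the cyclic nucleotide phosphodiesterase CNP, a membrane-bound enzyme of myelinating glia that in the central nervous system of mice is known to keep the cytoplasmic channels of myelin open. It had 454 and 503 FPKM in the double (set 0, then set 1, here and below), 453 and 522 FPKM in HA-NRG1 type III/+, 819.6 and 897 FPKM in Q215X/+, and 844 and 963 FPKM in WT. Both transgenic genotypes were low in both sets, with a gap of nearly 300 FPKM to the genotypes without the transgene. In the double, Cnp stood at 55.4% and 56.1% of Q215X/+, and in HA-NRG1 type III/+ at 53.7% and 54.2% of WT, so the ratio was nearly the same in each set and on each background. The log2 difference over both backgrounds was −0.87 ± 0.11 (SE; limma adjusted p = 0.0332, and 0.00119 with the replicate block). The difference between the backgrounds was 0.05 ± 0.22 on the log2 scale (SE; limma interaction adjusted p = 1). Without the block the call was lost with no filter on low genes (limma adjusted p = 0.0649) and with a term for sex (0.118), though not with terms for both sex and set (0.0151). It was also lost when any 1 library was left out (limma adjusted p between 0.0899 and 0.164); with it Cnp was called in all 8 such fits (0.00572 to 0.0264).

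Taken alone, neither background gave a call for Cnp without the block: the limma adjusted p was 0.206 for the double against Q215X/+ and 0.197 for HA-NRG1 type III/+ against WT. With the block it was 0.0120 and 0.00842, and with terms for both sex and set 0.527 and 0.121. The call with the block in the double against Q215X/+ was lost without either library of the double or Q215X/+ of set 1, and held in 5 of the 8 fits without 1 library (limma adjusted p between 0.0371 and 0.201). In HA-NRG1 type III/+ against WT it held in 3 of 8 (between 0.0196 and 0.121), those without either Q215X/+ library or WT of set 0. The double and WT were both of female libraries, so a term for sex can change the SE of their difference but not its size. The double against WT had a log2 difference of −0.91 ± 0.15 (SE, limma adjusted p = 0.134, and 0.00470 with the block). That call held with terms for both sex and set (limma adjusted p = 0.0287) and in 6 of 8 fits with the block and without 1 library (0.0171 to 0.145), being lost without either library of the double. Among all tested genes, the transgene difference of Cnp was the 85th from the lowest, and the 16th among the 714 genes with a mean over 100 FPKM. Its highest library was 2.13 times its lowest, while the same ratio was 1.19 to 1.47 in the other 8 genes.

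Cnp is also made by oligodendrocytes, so genes of those cells were read beside it. Mog, Mobp and Opalin, which mark oligodendrocytes, summed to 0.309 to 0.567 FPKM in the transgenic libraries and to 1.12 to 2.07 FPKM in those without the transgene. Most of that sum was Mobp, and Mog was at most 0.125 FPKM. Their part in the Cnp values was not tested. The exons of Cnp (chr11:100574904-100591729, plus strand, mm10) share 154 of 3639 bases with Dnajc7 on the opposite strand, and no source used here states how strand was handled. Dnajc7 had 47.8 to 60.2 FPKM in the transgenic libraries and 55.3 to 66.5 FPKM in the others, ranges that overlap.

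The bases before the start of a gene are shown for Cnp, for Gjc3, which was called only with the block, and for Mag, which passed no test of the transgene. They are from RefSeq, build GRCm38.p6, on the strand of the gene, and end before its first annotated exon base. RefSeq windows were at hand for 7 of the 9 genes, the others being Drp2 and Mpdz. Each window of 250 bases before a start was searched on both strands for ACAAAG, the core that SOX factors bind, for GCGNGGGCG, the letters bound by EGR factors, for TATAAA and for CCAAT; matches are in capitals.
Cnp (chr11:100574689-100574903, plus strand): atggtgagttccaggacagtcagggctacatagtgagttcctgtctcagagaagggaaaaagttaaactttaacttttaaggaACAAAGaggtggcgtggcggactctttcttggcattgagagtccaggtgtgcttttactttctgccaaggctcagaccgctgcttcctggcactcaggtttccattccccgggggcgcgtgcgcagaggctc
Gjc3 (chr5:137963099-137963348, minus strand): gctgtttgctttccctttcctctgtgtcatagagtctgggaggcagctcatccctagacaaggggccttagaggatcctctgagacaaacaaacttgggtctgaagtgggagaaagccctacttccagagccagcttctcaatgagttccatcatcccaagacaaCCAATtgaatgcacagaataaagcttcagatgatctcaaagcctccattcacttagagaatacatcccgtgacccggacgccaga
Mag (chr7:30914923-30915172, minus strand): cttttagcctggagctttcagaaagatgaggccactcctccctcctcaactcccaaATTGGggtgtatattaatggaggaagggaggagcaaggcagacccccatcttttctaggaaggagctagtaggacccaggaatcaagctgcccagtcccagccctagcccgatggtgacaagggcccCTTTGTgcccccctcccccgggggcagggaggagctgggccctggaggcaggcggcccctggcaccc
Cnp has 1 match to the SOX letters, from base 84 of the stretch, and Mag has 1 on the other strand, from base 184. Gjc3 has none of these but a CCAAT match, and Mag has a CCAAT match on the other strand. The stretch shown for Mag is from its start farthest upstream. Of the other start windows of Mag, 1 had 1 SOX match and 0 CCAAT matches, and another had 0 and 2. SOX letters occurred in 16.5% of 32851 promoter windows of that length, CCAAT in 33.9% and EGR letters in 4.70%. The EGR letters were in none of the 13 start windows of the 7 genes. These are matches of letters, not sites shown to be bound.

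The adhesion genes of the axon-facing side did not pass the test. Mag, a sialic acid binding adhesion protein of the inner tongue, had 181 and 151 FPKM in the double, 193 and 148 FPKM in HA-NRG1 type III/+, 187 and 174 FPKM in Q215X/+, and 192 and 155 FPKM in WT. Every genotype had its higher library in set 0, and the genotypes overlapped. The transgene difference was −0.08 ± 0.13 (SE, log2; limma adjusted p = 0.961), and the set difference, set 1 minus set 0, was −0.26 ± 0.05 (SE, log2; limma adjusted p = 0.0133). The level of Mag thus differed more between the sets than between the genotypes. The ratio of Cnp to Mag was 2.51 and 3.34 in the double, 2.35 and 3.54 in HA-NRG1 type III/+, 4.37 and 5.17 in Q215X/+, and 4.40 and 6.20 in WT. It was lower with the transgene in each set.

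Cadm4 encodes the glial nectin-like protein that binds an axonal partner along the internode. It had 683 and 749.9 FPKM in the double, 732 and 826 FPKM in HA-NRG1 type III/+, 719 and 876 FPKM in Q215X/+, and 914 and 904 FPKM in WT. WT was above every other library, by the least over Q215X/+ in set 1, and the other 3 genotypes overlapped. Against WT, the log2 difference was −0.34 ± 0.16 in the double, −0.23 ± 0.16 in HA-NRG1 type III/+ and −0.20 ± 0.16 in Q215X/+ (SE; limma adjusted p = 0.760, 0.993 and 1). With the replicate block the smallest of the limma adjusted p-values was 0.115, in the double.

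At the outer surface, Prx encodes periaxin, which links the Schwann cell membrane to dystroglycan through DRP2 and is mutated in a recessive demyelinating form of Charcot-Marie-Tooth disease. Prx was the most abundant of the 9 genes in every genotype, with 1323 and 1194 FPKM in the double, 1244 and 1255 FPKM in HA-NRG1 type III/+, 1455 and 1377 FPKM in Q215X/+, and 1485 and 1454 FPKM in WT. The 4 transgenic libraries lay below the other 4, though by little between the double in set 0 and Q215X/+ in set 1. The transgene difference was −0.20 ± 0.11 (SE, log2) and did not pass the test (limma adjusted p = 0.617, and 0.0910 with the block).

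Drp2, the dystrophin-related protein that periaxin binds, showed another order. It had 520.0 and 509 FPKM in the double, 411 and 540.4 FPKM in HA-NRG1 type III/+, 499 and 448 FPKM in Q215X/+, and 510.0 and 606 FPKM in WT. The lowest value was that of HA-NRG1 type III/+ in set 0 and the highest that of WT in set 1. The transgene difference was −0.06 ± 0.12 (SE, log2; limma adjusted p = 0.979). The ratio of Prx to Drp2 was 2.55 and 2.35 in the double, 3.03 and 2.32 in HA-NRG1 type III/+, 2.92 and 3.08 in Q215X/+, and 2.91 and 2.40 in WT, with no gap between the genotypes with and without the transgene.

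Drp2 and Gjb1 are X-linked, which allows them to be set against the sex of the libraries. Drp2 ranged from 411 to 499 FPKM in the 3 male libraries and from 509 to 606 FPKM in the 5 female libraries, without overlap. All male libraries were below all female ones in 1.27% of the tested genes. With terms for sex and set, the difference of male minus female libraries was −0.37 on the log2 scale (limma adjusted p = 0.952), a fit in which the HA-NRG1 type III/+ pair alone carries the sex term. Gjb1 ranged from 107 to 119.7 FPKM in male libraries and from 112 to 126 FPKM in female ones, which overlap.

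**Figure D2:**
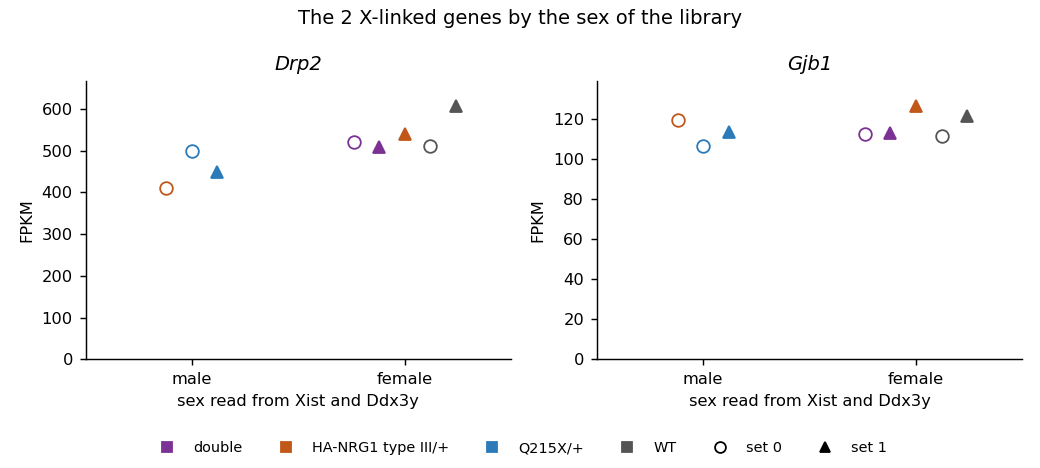
FPKM of Drp2 and Gjb1 (vertical axes, from 0) in the 3 male and 5 female libraries, by sex read from Xist and Ddx3y; colours give the genotype, circles set 0 and triangles set 1. Drp2 is at most 499 FPKM in male and at least 509 FPKM in female libraries, while Gjb1 overlaps.

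The connexins of the incisures and paranodes differed from each other. Gjb1, the connexin mutated in X-linked Charcot-Marie-Tooth disease, forms reflexive gap junctions between the wraps of 1 Schwann cell. It had 113 and 113 FPKM in the double, 119.7 and 126 FPKM in HA-NRG1 type III/+, 107 and 114 FPKM in Q215X/+, and 112 and 121 FPKM in WT. It was the steadiest of the 9 genes, with a transgene difference of 0.06 ± 0.07 (SE, log2; limma adjusted p = 0.925).

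Gjc3, a connexin of the innermost Schwann cell membrane and the incisures, had 115 and 97.4 FPKM in the double, 115 and 99.2 FPKM in HA-NRG1 type III/+, 138 and 129 FPKM in Q215X/+, and 125 and 116 FPKM in WT. The transgenic libraries lay below the others, though the highest of them was within 1 FPKM of the lower WT library. The transgene difference was −0.25 ± 0.09 (SE, log2; limma adjusted p = 0.349, and 0.0220 with the block). With terms for both sex and set it was not called (limma adjusted p = 0.0975). With the block, it was called without Q215X/+ set 0 (adjusted p = 0.0416) but not without any of the other 7 libraries (0.0602 to 0.139). Its sets differed as well, set 1 being lower by −0.16 ± 0.04 (SE, log2; limma adjusted p = 0.0287).

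The order of the connexins by level was not the same in every genotype. The ratio of Gjc3 to Gjb1 was 1.02 and 0.862 in the double, 0.962 and 0.785 in HA-NRG1 type III/+, 1.29 and 1.14 in Q215X/+, and 1.13 and 0.955 in WT. Gjc3 was above Gjb1 in both Q215X/+ libraries and below it in both HA-NRG1 type III/+ libraries. In the double and in WT the levels of the 2 connexins overlapped.

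Of the junction proteins, Cldn19, the claudin of tight junctions in incisures, paranodal loops and mesaxons, had 463 and 395 FPKM in the double, 483 and 412 FPKM in HA-NRG1 type III/+, 539 and 441 FPKM in Q215X/+, and 519.9 and 488 FPKM in WT. Each set 1 library was below its set 0 partner, and genotypes with and without the transgene overlapped across sets. The set difference was −0.21 ± 0.05 (SE, log2; limma adjusted p = 0.0224), and the transgene difference −0.18 ± 0.12 (SE, log2; limma adjusted p = 0.718, and 0.0905 with the block).

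Mpdz encodes the multiple PDZ domain scaffold MUPP1, which binds claudins and other junction proteins, and was the least abundant of the 9 genes. It had 38.5 and 35.8 FPKM in the double, 40.2 and 39.8 FPKM in HA-NRG1 type III/+, 47.3 and 44.5 FPKM in Q215X/+, and 48.6 and 47.9 FPKM in WT. The genotypes followed each other in that order with no overlap between neighbours, and the widest gap lay between those with and those without the transgene. The transgene difference was −0.28 ± 0.06 (SE, log2; limma adjusted p = 0.0983, and 0.0107 with the block). With the block it was called in 4 of the 8 fits that each left out 1 library (limma adjusted p between 0.0321 and 0.0833), being lost without either library of the double, HA-NRG1 type III/+ of set 0 or WT of set 1. The double against WT was called with the block alone, at −0.37 ± 0.08 (SE without the block, log2; limma adjusted p = 0.270, and 0.0295 with the block). It was lost with terms for both sex and set (limma adjusted p = 0.0656), and with the block held in 2 of 8 fits without 1 library (0.0439 to 0.301), those without either Q215X/+ library.

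**Figure D3:**
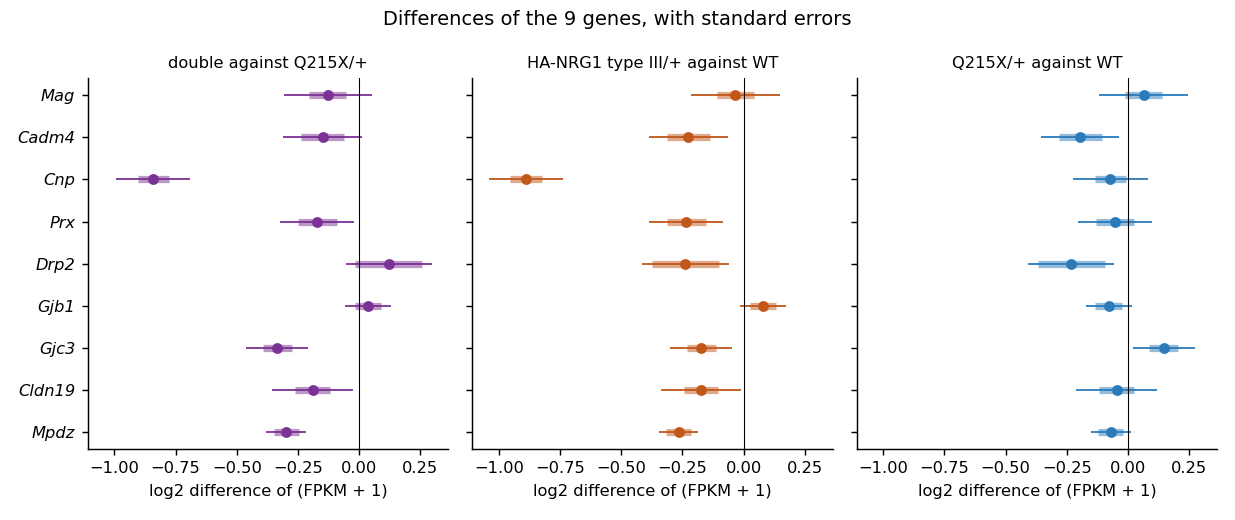
Log2 differences of (FPKM + 1) of the 9 genes (horizontal axes) for the double against Q215X/+, HA-NRG1 type III/+ against WT, and Q215X/+ against WT; thin lines are standard errors without the replicate block and thick bars with it. Cnp lies at −0.84 and −0.89 in the transgene comparisons, and no gene is beyond −0.24 or 0.15 in Q215X/+ against WT.

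Comparison by comparison, the calls were few. In the double against Q215X/+, 0 of the 9 genes were called by limma, where 0.0399% of all tested genes were, and 3 (Cnp, Mpdz and Gjc3) had an unadjusted p under 0.05, where 6.58% did. With the block, 1 of the 9 was called (Cnp), where 1.72% were. In HA-NRG1 type III/+ against WT, 0 were called, where 0.0638% were, and 2 (Cnp and Mpdz) had an unadjusted p under 0.05, where 6.9% did. With the block, 1 was called (Cnp), where 2.11% were. In the double against WT, a comparison that shares its libraries with the others, 0 were called, where 0.112% were, and 2 (Cnp and Mpdz) had an unadjusted p under 0.05, where 7.29% did. With the block, the same 2 were called, where 2.39% were. In Q215X/+ against WT, 0 were called with or without the block, where 0.00798% were, and 0 had an unadjusted p under 0.05 without it, where 2.04% did; with the block Gjc3 alone did, where 7.41% of all tested genes did, and it stood at 110% and 112% of WT. For the interaction, the transgene difference in the mutant minus that in WT, 0 of the 9 were called with or without the block, where 0.00798% were, and 0 had an unadjusted p under 0.05, where 1.11% did.

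Ranges of the 2 libraries a genotype that do not overlap are a looser rule than the test. The share of all tested genes that met it is given beside each count. In the double, 4 genes lay wholly below Q215X/+ (15.2% of all tested genes did) and 1, Drp2, above it (14.6%), a comparison of female with male libraries. In HA-NRG1 type III/+, 6 lay wholly below WT (15.7%) and 0 above it (14.7%). In the double, 6 lay wholly below WT (16.7%) and 0 above it (14.4%). In Q215X/+, 3 lay wholly below WT (10.2%) and 1, Gjc3, above it (8.78%).

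Summed over the 9 genes, the level was 3890 and 3748 FPKM in the double, 3790 and 3967 FPKM in HA-NRG1 type III/+, 4511 and 4500 FPKM in Q215X/+, and 4749 and 4854 FPKM in WT. Of the 9 genes, Cnp had the widest difference in mean FPKM both in the double against Q215X/+ and in HA-NRG1 type III/+ against WT. FPKM is per length, so the levels of the genes can be ordered. In WT the means ran Prx, Cadm4, Cnp, Drp2, Cldn19, Mag, Gjc3, Gjb1 and Mpdz, from 1470 to 48.2 FPKM, and the neighbours Cadm4 and Cnp, Drp2 and Cldn19, and Gjc3 and Gjb1 overlapped. Cnp also overlapped Cadm4 in Q215X/+. In HA-NRG1 type III/+ it lay below Cadm4 and overlapped Drp2, and in the double it lay below Drp2 and overlapped Cldn19.

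Other genes of the same structures mostly did not share the difference. For the transgene over both backgrounds, 0.99% of all tested genes were called without the block, 0.455% lower. With the block 7.1% were called, 3.69% lower. These are the shares to set beside the counts of the lists below. Of 12 tested genes of the dystroglycan complex, 1 was called lower with the transgene over both backgrounds and 0 higher, with or without the block. Of 18 tested genes of incisure junctions and polarity, 0 were called either way. Among them was Mpp6, a membrane-associated guanylate kinase of Schwann cells, with 44.8 and 39.2 FPKM in the double, 46.1 and 39.7 FPKM in HA-NRG1 type III/+, 39.7 and 37.8 FPKM in Q215X/+, and 34.0 and 35.5 FPKM in WT. Its lowest transgenic library lay just below its highest Q215X/+ library, and the transgene difference was 0.20 on the log2 scale (limma adjusted p with the block = 0.0853).

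Among 4 other tested connexins, 0 were called without the block and 1, Gjb2, was called higher with it (limma adjusted p = 0.0929, and 0.0186 with the block). Gjb2 had 9.07 and 9.35 FPKM in the double, 8.69 and 8.10 FPKM in HA-NRG1 type III/+, 4.18 and 3.58 FPKM in Q215X/+, and 7.44 and 4.07 FPKM in WT. The call with the block was lost in 6 of the 8 fits without 1 library (limma adjusted p between 0.0115 and 0.101 over the 8). Of 8 tested genes of axon-glia adhesion, 1 was called lower (Cntn1, the axonal and glial contactin of the paranode) and 0 higher, and with the block Gldn, the nodal gliomedin, was called higher as well, at 0.20 on the log2 scale (limma adjusted p = 0.0440, and 0.0720 or more without any 1 library). Cntn1 had 0.662 and 0.491 FPKM in the double, 0.622 and 0.597 FPKM in HA-NRG1 type III/+, 2.97 and 2.55 FPKM in Q215X/+, and 2.99 and 2.80 FPKM in WT. Its transgenic libraries were all lower, at a log2 difference of −1.26 ± 0.08 (SE; limma adjusted p = 0.00387), and at −2.08 with a pseudocount of 0.1 in place of 1.

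The downward lean of the 9 genes was also seen in compact myelin genes. With the transgene, 7 of 8 of these lay below 0, at a median log2 difference of −0.22, against −0.19 for the 9 genes. Of the 8, 0 were called lower and 1 higher with the transgene (Pmp2, a lipid-binding protein of the compact sheath, at 0.95 ± 0.14, SE, log2; limma adjusted p = 0.0467). It was not called without any 1 library (limma adjusted p between 0.126 and 0.237), and with the block was called in 6 of 8 such fits. With the block 3 were called lower, among them Pllp, plasmolipin, at −0.51, and Mal, a raft protein, at −0.32 on the log2 scale (limma adjusted p = 0.00531 and 0.0207). With 1 library left out and the block, Pllp was called in 7 of 8 fits and Mal in 1. Of 10 regulators of myelination, 8 lay below 0, at a median log2 difference of −0.10. Of these regulators, 0 were called without the block and 2 lower with it: Sox10, the Schwann cell lineage factor, at −0.26, and Pou3f1, a factor of the promyelinating stage, at −0.30 on the log2 scale (limma adjusted p with the block = 0.0303 and 0.0298). With 1 library left out and the block, Sox10 was called in 1 of 8 fits and Pou3f1 in 0. Egr2, the master factor of myelination, was at −0.22 (limma adjusted p with the block = 0.0912).

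**Figure D4:**
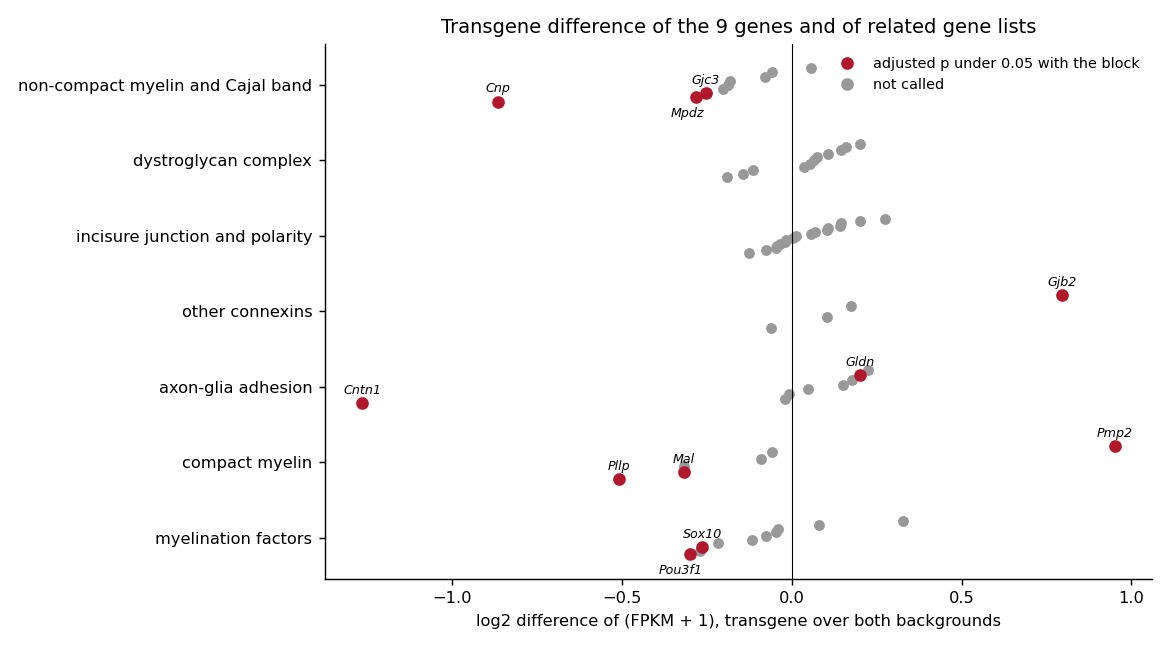
Log2 difference of (FPKM + 1) for the transgene over both backgrounds (horizontal axis), 1 point a gene, for the 9 genes and for genes of 6 related lists; coloured points had a limma adjusted p under 0.05 with the replicate block. The 9 genes run from −0.87 (Cnp) to 0.06 (Gjb1), and no plotted gene of incisure junctions and polarity was called.

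Markers of other cells of the nerve were counted in the same comparison, the transgene over both backgrounds. Of all tested genes, 0.99% were called there without the block (0.455% lower) and 7.1% with it (3.69% lower). Of 6 markers of non-myelinating Schwann cells, 0 were called without the block and 4 lower with it; they summed to 94.1 to 107 FPKM in the transgenic libraries, against 127 to 147 FPKM in the others. Of 5 red blood cell markers, 1 was called lower without the block and 4 with it, with sums of 49.1 to 178 FPKM in the transgenic libraries and 239 to 1279 FPKM in the others. Of 6 axonal transcripts, 1 was called lower without the block, and 4 lower and 1 higher with it, while their sums overlapped at 852 to 1148 FPKM in the transgenic libraries and 736 to 1161 FPKM in the others.

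Of 4 tested genes of repair and immature Schwann cells, 1 was called higher without the block and 2 with it; the whole list summed to 50.8 to 68.9 FPKM in the transgenic libraries, against 39.8 to 54.4 FPKM in the others. Of 8 macrophage markers, 1 was called lower without the block, and 1 lower and 1 higher with it, with sums of 265 to 359 FPKM in the transgenic libraries and 249 to 270 FPKM in the others. Of 5 fibroblast markers, 0 were called without the block and 1 higher with it, with sums of 5444 to 5781 FPKM in the transgenic libraries and 4701 to 5201 FPKM in the others. With the block, 1 of 7 endothelial markers was called lower and 1 of 6 markers of pericytes and smooth muscle higher, and 0 of each without it. Their part in the values of Cnp, Mpdz and Gjc3 was not tested.

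Genes whose log2 levels rose and fell most like each of the 9 over the 8 libraries are named as a description, being the highest of all tested genes by Pearson's r. For Cnp they were Tnfaip8l1, Gatm and Kcnk1 (r = 0.987, 0.986 and 0.986), and for Mpdz they were Fbxo31, Efs and Pxdc1 (0.988, 0.985 and 0.981). For Gjc3 they were Arnt2, Wwp1 and Col11a1 (0.977, 0.971 and 0.968), and for Prx they were Epn1, Triobp and Slc3a2 (0.989, 0.984 and 0.963). For Drp2 they were Sun2, Pink1 and Cep112 (0.986, 0.981 and 0.952), and for Gjb1 they were Cystm1, Gmfb and Sigirr (0.969, 0.959 and 0.955). For Mag they were Limk1, Smarca4 and Lama4 (0.981, 0.976 and 0.975), for Cadm4 Pold2, Samhd1 and Zcchc3 (0.980, 0.967 and 0.967), and for Cldn19 Syde1, Lats2 and Zfp169 (0.994, 0.977 and 0.977). The 8 libraries share genotypes and sets, so these points are not independent.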

How the data were processed

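RNA from sciatic nerves was extracted with Trizol, poly A selected and made into TruSeq libraries, per the labels. The authors deposited 1 FPKM value per gene and library for 23356 genes. The submitters' processing notes name TopHat2 2.0.9, Cufflinks 2.2.0 and mm10. What each did, and the annotation, strand handling and filters, were not given in the sources used here. FPKM values carry no counts, so depth is unknown and counting intervals cannot be had. Total FPKM ran from 443733 to 530901 a library. Steps between low values gave relative depths of 0.727 to 1.09, with WT set 0 as 1. These are rough: they rest on 34 to 38 genes in each set 1 library and 104 to 177 in the other set 0 libraries. Columns were joined to genotypes by name stems, and the abbreviated stem of the transgene was taken as HA-NRG1 type III/+, the 1 genotype no other stem named. The endings 0 and 1 are matched to replicate numbers by no label.

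From these values log2(FPKM + 1) was computed, which understates changes of low genes, and limma 3.58.1 in R 4.3.3 fitted 4 group means over all 8 libraries (4 residual degrees of freedom, eBayes with a trend), with Benjamini-Hochberg adjustment over the 12530 genes whose mean reached 1 FPKM. The fit was run on simulated data with larger changes than any of the 9 genes showed, so that run does not bear on calls of small differences. The pairing of libraries by set comes from the data, not from a label: differences of set 1 minus set 0 correlated across genes in all 6 pairs of genotypes (r = 0.118 to 0.304), and set 0 and set 1 lay apart on the first principal component within each genotype. A replicate block for the set leaves 3 residual degrees of freedom, and its value is given beside a call it changes. Alternatives were another pseudocount, no filter, median-of-ratios scaling, a term for sex, a total without short RNA genes and leaving out each library; the total without short RNA, and leaving out libraries with the block, were chosen after seeing the data. The 9 genes, the lists and the rules were chosen with earlier results of these data known. Named genes are the 9, and up to 4 called genes of each list by smallest p (or 2 as values). The 3 genes most like each of the 9 are named too. Egr2, Dnajc7, Mog, Mobp, Opalin, Nrg1, Xist and Ddx3y were named beyond these rules, with their values known. Some genes of the lists, and the gene that carries the Q215X allele, are not reported here and not plotted. Gene positions and overlaps are from GENCODE on GRCm38, the build of mm10.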

Additional observations from a re-analysis of the deposited data

Results flagged for a closer look

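The transgene difference of Drp2 pointed in opposite directions on the 2 backgrounds in every library pair. Drp2 was flagged by such signs alone, as was Gjc3 below, and the share of all tested genes with such signs was not counted. Drp2 was at 104% and 114% of Q215X/+ in the double, in set 0 and set 1, and at 80.6% and 89.2% of WT in HA-NRG1 type III/+. The transgene difference in the mutant minus that in WT was 0.36 ± 0.25 (SE, log2; limma interaction adjusted p = 1, and 0.965 with the replicate block). The Q215X/+ libraries were male and those of the double female, and with a term for sex the difference between the backgrounds was −0.23. It was −0.20 with terms for both sex and set. In each of these fits the HA-NRG1 type III/+ pair alone carries the sex term.

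For Gjc3, the difference between genotypes with and without the Q215X allele pointed in opposite directions with and without the transgene. With the transgene it was slight: Gjc3 was at 99.7% and 98.2% of HA-NRG1 type III/+ in the double, in set 0 and set 1. Without the transgene, Gjc3 was at 110% and 112% of WT in Q215X/+. The interaction was −0.16 ± 0.18 (SE, log2; limma interaction adjusted p = 1, and 0.965 with the replicate block). The Q215X/+ libraries were male and those of WT female. With a term for sex the interaction was 0.16, and the log2 difference of Gjc3 in Q215X/+ against WT was −0.066, where it was 0.15 without that term. In that fit the HA-NRG1 type III/+ pair alone carries the sex term, and its libraries also differ in set. With terms for both sex and set the log2 difference in Q215X/+ against WT was 0.080, and the interaction was below 0.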

How the results depend on the processing

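For the transgene over both backgrounds, Cnp, Mpdz, Gjc3, Prx, Cldn19 and Cadm4 were lower under every alternative tried. Gjb1 was higher there under every alternative. Of the 9 genes, 1 was called there; 0 were with no filter, 0 with a term for sex, 2 with terms for sex and replicate block and 3 with the replicate block. In the replicate block, which pairs libraries by set, 1 was called in HA-NRG1 type III/+ against WT, 1 in the double against Q215X/+ and 2 in the double against WT (1 with sex as well), where 0 were without it. Without 1 library, with or without the block, between 0 and 3 were called over both backgrounds, between 0 and 1 in the double against Q215X/+ and likewise in HA-NRG1 type III/+ against WT, and between 0 and 2 in the double against WT. The block ended no call of a gene named here.

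Over all tested genes the calls moved more, and the cause was not tested. The ranges without 1 library span fits with the block as well as fits without it. For the transgene over both backgrounds 124 became 59 with no filter, 890 with the block, 22 with sex, 304 with sex and block, and 11 to 669 without 1 library. In HA-NRG1 type III/+ against WT, 8 became 0 with no filter, 265 with the block and 1 to 221 without 1 library. In the double against Q215X/+, 5 became 3 with no filter, 216 with the block, 9 with sex, 11 with sex and block, 1 with a total without short RNA genes, and 1 to 73 without 1 library. In the double against WT, 14 became 299 with the block, 98 with sex and block, 26 without short RNA, and 4 to 241 without 1 library. In Q215X/+ against WT, 1 became 2 with no filter, 8 with sex, 9 with sex and block, 0 without short RNA, and 1 to 20 without 1 library. For the interaction, 1 became 9 with sex, 9 with sex and block, 0 without short RNA, and 3 to 12 without 1 library.

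Log2 differences that changed sign belonged to genes called in neither fit. The term for sex is carried by the HA-NRG1 type III/+ pair alone, male in set 0 and female in set 1. Without the block, sex therefore cannot be told apart from set in that term. In Q215X/+ against WT, a term for sex gave Mag −0.32, Drp2 0.16, Gjc3 −0.066 and Cnp 0.13, sex and block gave Mag −0.095, Prx 0.045 and Drp2 0.14, and the total without short RNA gave Cldn19 0.00195. In the double against Q215X/+, sex gave Mag 0.26, Drp2 −0.27, Gjb1 −0.042 and Cldn19 0.041, and sex and block gave Mag 0.031 and Drp2 −0.25. In HA-NRG1 type III/+ against WT, Mag was 0.00466 without short RNA, and over both backgrounds 0.016 with sex. Without short RNA, Mag was 0.021 and Gjb1 0.041 in the double against WT. The interaction with sex was 0.48 for Mag, −0.23 for Drp2, 0.16 for Gjc3, −0.26 for Cnp, 0.33 for Cldn19 and −0.18 for Cadm4, and with sex and block 0.14 for Mag, −0.085 for Prx, −0.20 for Drp2, −0.026 for Cnp and 0.026 for Cldn19. Ranges without 1 library span fits with and without the block. Q215X/+ against WT ran from −0.087 to 0.21 for Mag, −0.17 to 0.023 for Cnp and −0.19 to 0.098 for Cldn19. Mag ran from −0.22 to 0.16 in HA-NRG1 type III/+ against WT. The double against Q215X/+ ran from −0.26 to 0.00489 for Mag, −0.058 to 0.30 for Drp2 and −0.010 to 0.081 for Gjb1. In the fits without the block Drp2 kept its sign there, at 0.044 to 0.20. Against WT the double had −0.21 to 0.087 for Mag, −0.24 to 0.013 for Drp2 and −0.10 to 0.016 for Gjb1. Over both backgrounds it was −0.18 to 0.016 for Mag and −0.16 to 0.041 for Drp2, and in the interaction −0.29 to 0.097 for Mag, −0.011 to 0.14 for Prx, −0.10 to 0.015 for Gjb1, −0.055 to 0.15 for Cnp, −0.16 to 0.13 for Cldn19, −0.085 to 0.017 for Mpdz and −0.065 to 0.22 for Cadm4.

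With 2 libraries a genotype and FPKM without counts, a p that misses the threshold does not show equal levels, and no counting error can be given.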
